A study of Mus musculus with 1 sample.

Results

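Genes of the unfolded protein response and of protein folding in the endoplasmic reticulum (ER) were examined in cells of wild type mouse gastric organoids. A list of 38 genes, chosen by name, was looked up among the 32285 genes of the deposited single-cell matrix, and all 38 names were found. The members comprise 15 folding genes, 6 translocon genes, 8 degradation genes, 3 genes of stress sensing (Atf6, Ern1 and Xbp1) and 6 ATF4-type genes (Atf4, Ddit3, Trib3, Chac1, Asns and Ppp1r15a). The data are 1 library from gastric epithelial organoids, cultures of stomach epithelium grown from wild type mice with no treatment and harvested on day 7. Kept for analysis were 1892 cells of 1991 barcodes, with a median of 8512 unique molecular identifiers (UMIs, 1 per captured RNA molecule) per cell. Cultures were dissociated with trypsin before a droplet-based 3′ library was made. No second library, genotype or treatment was analysed here, so there was no replicate check and no test between groups, and the design describes cells within 1 library.

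The ER is where secreted and membrane proteins enter through the Sec61 translocon, are folded by chaperones and disulfide isomerases, or are sent back to the cytosol for degradation. When unfolded protein accumulates, IRE1 (the product of Ern1) splices Xbp1 mRNA and ATF6 is cleaved, and both routes raise chaperone and degradation genes. A separate route through phosphorylated eIF2 favours translation of ATF4, whose targets include genes of amino acid supply, Ddit3 (which encodes CHOP) and Ppp1r15a (the GADD34 subunit of the phosphatase that reverses the signal). Amino acid shortage and haem or viral signals also reach ATF4, without the ER. Stomach epithelium secretes mucus proteins and digestive enzymes, and so depends on this machinery.

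Promoters of the members are shown because chaperone and ATF4-type genes are known to be driven by different DNA elements. RefSeq promoter entries (GRCm38.p6) matched 32 of the 38 members in 33 entries, Derl2 having more than 1, and there was none for Manf, Hyou1, Sec61a1, Ssr2, Derl1 and Atf6. The 250 bases before each start were searched on both strands for 4 motifs. These were the ER stress response element ERSE (CCAAT and CCACG with 9 free bases between), ERSE-II (ATTGG and CCACG with 1 free base between), the core of the unfolded protein response element (TGACGTGG) and the core of the C/EBP-ATF element (TGATGNAA). ERSE letters were found in 7 of 13 folding entries, 2 of 8 degradation entries (Syvn1 and Derl3), and in 0 of 4 translocon, 0 of 2 sensing and 0 of 6 ATF4-type entries. Among all 32851 entries, 37 held them, which is 0.113%. The ERSE matches of the folding genes follow, 5′ to 3′ along the gene, with the fixed letters of the motif in capitals. CGTGG and ATTGG are the same letters on the opposite strand.
Hspa5, 47 to 65 bases before the start: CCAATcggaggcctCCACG
Hsp90b1, 194 to 212 bases before the start: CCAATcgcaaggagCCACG
Hsp90b1, 89 to 107 bases before the start: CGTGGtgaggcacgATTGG
Calr, 144 to 162 bases before the start: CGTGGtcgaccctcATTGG
Canx, 127 to 145 bases before the start: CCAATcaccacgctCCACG
Pdia6, 80 to 98 bases before the start: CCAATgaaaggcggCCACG
Dnajc3, 87 to 105 bases before the start: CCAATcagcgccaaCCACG
Creld2, 108 to 126 bases before the start: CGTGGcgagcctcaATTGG

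ERSE-II letters were in 10 of all entries (0.0304%), and Herpud1 was the member among them. C/EBP-ATF letters were in 1134 of all entries (3.45%) and in 3 members, Asns, Chac1 and Herpud1. The TGACGTGG core was in 185 of all entries (0.563%) and in no member entry. The whole 250-base windows of 3 genes that the results below set against each other are printed with matched letters in capitals. Hspa5 stands for the folding genes, Asns for the ATF4-type genes, and Herpud1 held letters of both kinds. A match describes these letters and is not evidence of binding.
Hspa5, chr2:34771840-34772089, plus strand: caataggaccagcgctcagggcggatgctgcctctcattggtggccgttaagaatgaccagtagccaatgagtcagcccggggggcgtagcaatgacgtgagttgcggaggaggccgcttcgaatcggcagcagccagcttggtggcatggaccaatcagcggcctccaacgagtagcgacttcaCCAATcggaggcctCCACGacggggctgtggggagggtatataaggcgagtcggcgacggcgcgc
Herpud1, chr8:94386179-94386428, plus strand: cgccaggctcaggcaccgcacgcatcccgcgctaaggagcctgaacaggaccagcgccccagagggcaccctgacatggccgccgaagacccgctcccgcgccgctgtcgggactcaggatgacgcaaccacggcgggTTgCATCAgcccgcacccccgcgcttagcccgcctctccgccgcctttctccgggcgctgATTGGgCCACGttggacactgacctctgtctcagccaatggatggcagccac
Asns, chr6:7693210-7693459, minus strand: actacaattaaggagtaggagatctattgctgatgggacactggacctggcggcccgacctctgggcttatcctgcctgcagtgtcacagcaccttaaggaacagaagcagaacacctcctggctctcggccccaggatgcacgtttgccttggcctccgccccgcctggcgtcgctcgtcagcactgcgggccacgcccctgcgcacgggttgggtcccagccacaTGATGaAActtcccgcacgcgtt

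All 5 groups of members were expressed, and folding genes held the largest part. Levels are given as CPM, a gene's summed UMIs in the kept cells per 1000000 gene UMIs, with 95% Poisson intervals that cover counting error only. A 3′ count takes 1 tag per molecule, so levels were not divided by length. Together the members had 74452 UMIs, or 0.370% of all gene UMIs. The folding list summed to 1713 CPM (1695 to 1731), the translocon list to 995 (981 to 1009), the sensing list to 363 (355 to 372), the ATF4-type list to 328 (321 to 336) and the degradation list to 302 (294 to 309).

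**Figure D1:**
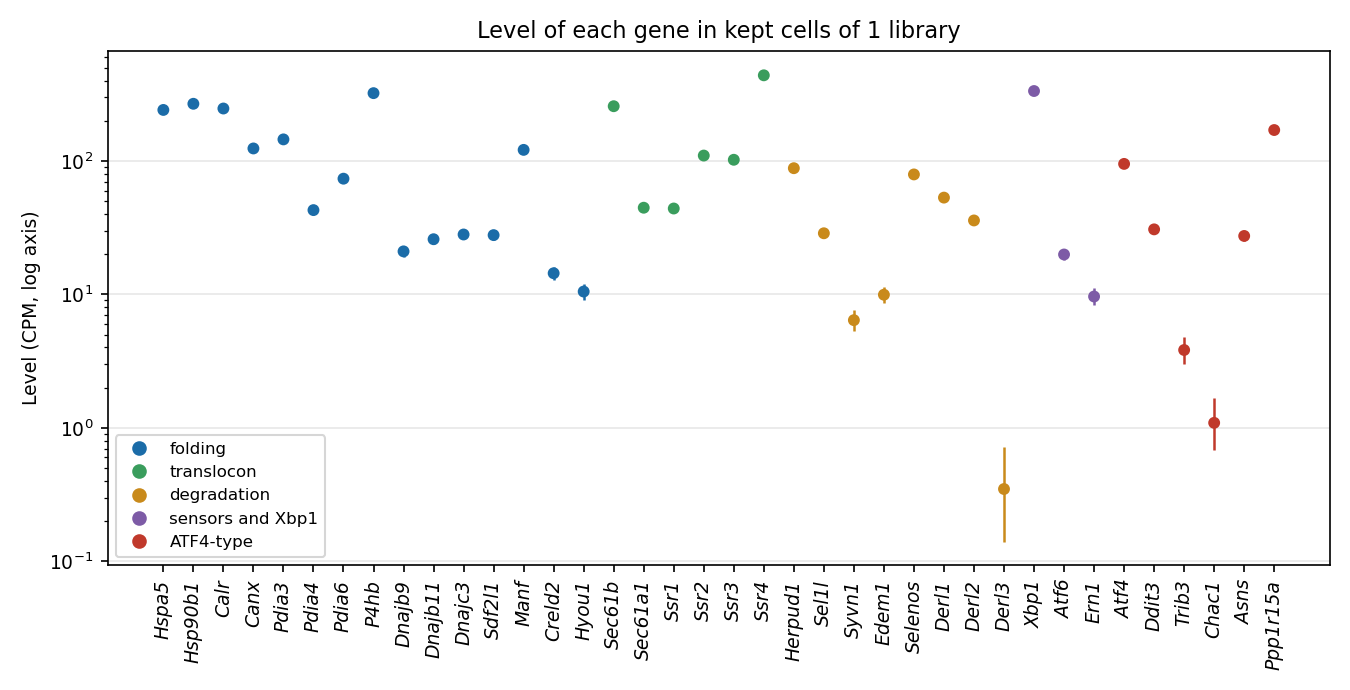
Level of each member in the 1892 kept cells, in CPM on a log axis, with 95% Poisson intervals, coloured by role. Ssr4 at 438 CPM and Derl3 at 0.348 CPM are the ends of the range.

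Among the folding genes, the most abundant was P4hb, the classical protein disulfide isomerase, at 322 CPM (314 to 329.8). The ER chaperones of the HSP90 and HSP70 families, Hsp90b1 (GRP94) and Hspa5 (BiP), were at 268 CPM (261 to 275) and 241 CPM (234 to 248), and the lectin chaperone Calr at 247 CPM (241 to 254). These 4 genes held 63.0% of the list. Pdia3 followed at 145 CPM, Canx at 124, the secreted survival factor Manf at 121 and Pdia6 at 73.6. The co-chaperones and BiP partners were lower, from Pdia4 at 42.8 CPM through Dnajc3 (28.1), Sdf2l1 (27.8), Dnajb11 (25.9), Dnajb9 (21.0) and Creld2 (14.4) to the nucleotide exchange factor Hyou1 at 10.5 CPM (9.12 to 12). Hspa5 UMIs were found in 78.1% of cells, with up to 32 in 1 cell, and Hyou1 UMIs in 10.0%.

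Of the translocon genes, Ssr4, a subunit of the complex that sits beside Sec61, had the highest level of any member, 438 CPM (429 to 447), and was detected in 91.7% of cells. Sec61b, the small subunit of the channel, was at 257 CPM and its pore subunit Sec61a1 at 44.6. Ssr2 and Ssr3 were near 100 CPM (109.7 and 102), and Ssr1 was at 44.0. Degradation genes were led by Herpud1, which organises the ubiquitin ligase complex in the membrane, at 88.2 CPM (84.1 to 92.4), and Selenos at 79.2. The derlins Derl1 and Derl2 were at 53.1 and 35.8 CPM, the ligase adaptor Sel1l at 28.7, the glycan reader Edem1 at 9.94 and the ligase Syvn1 at 6.41. Derl3 had 7 UMIs in the library, or 0.348 CPM (0.140 to 0.717).

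Xbp1 made up 91.9% of the sensing list, at 334 CPM (326 to 342), against 19.9 for Atf6 and 9.64 for Ern1. The 3′ counts cover Xbp1 as a whole and do not separate its spliced form. Among ATF4-type genes, Ppp1r15a was the highest, at 170.4 CPM (165 to 176), followed by Atf4 at 95 (90.8 to 99.3), Ddit3 at 30.7 (28.3 to 33.2) and Asns at 27.4 (25.1 to 29.8). Trib3, a pseudokinase induced by CHOP, had 77 UMIs (3.83 CPM), and Chac1, which degrades glutathione, had 22 (1.09 CPM). Ddit3 is on 2 rows of the matrix, ENSMUSG00000025408 (chromosome 10, 127290774 to 127296288, plus strand) and the overlapping ENSMUSG00000116429 (127290829 to 127293753) with 0 UMIs. Counting may discard reads that overlap both, so the Ddit3 level is uncertain. Trib3, Chac1 and Derl3, with under 100 UMIs, were left out of the counts below, which cover 35 members.

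The cells carried epithelial markers throughout, with an Epcam UMI in 96.6% and Krt8 in 97.9%. UMIs of the pit cell list were found too, Tff1 in 54.7%, Gkn1 in 23.0%, Gkn2 in 16.8% and Muc5ac in 2.38% of cells, and of the neck list Tff2 was in 7.08%, Cftr in 1.80% and Muc6 in 1 cell. Of cell types rich in ER, the chief list had Pgc at 71 UMIs in 31 cells, Bhlha15 at 7 UMIs, and Pga5 and Cblif at 0 (which allows a UMI in up to 0.159% of cells and does not limit the cells that express them). The plasma cell list had Sdc1 in 47.3% of cells, Jchain at 2 UMIs, Cd79a at 1, and Mzb1 and Ighm at 0. Of the parietal list Atp4a was in 27 cells and Atp4b and Slc26a7 at 0, of the tuft list Dclk1 was in 29 cells, Pou2f3 in 3 and Trpm5 in 0, and of the endocrine list Chgb was in 2 cells and Chga, Neurod1 and Sst at 0. Of 7 genes of cells outside the epithelium, Cd68 was in 8.56% of cells and each of the others in at most 3 cells. Free RNA as a source of member or marker UMIs was not measured, and every cluster carried the epithelial markers.

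Cells were clustered without the members and related ER, stress, cell cycle and mitochondrial genes, which gave 7 clusters of 483, 384, 324, 307, 225, 108 and 61 cells. No cluster was given a cell type name. Leading genes were Aox3 and Cbr2 in cluster 1, AC168977.1 and 2610528A11Rik in cluster 2, Ly6m and Sprr1a in cluster 3, Psca in cluster 4, Ccl20 and Cxcl2 in cluster 5, the mitotic genes Aspm and Dlgap5 in cluster 6, and Cyba, Reg3g and Gsta2 in cluster 7. Cluster 7 stood apart: 52.5% of its cells had a UMI of 4 Y-linked genes (39.3% to 65.4%), against 0.983% of all other cells (0.584% to 1.55%). Xist UMIs were in 27.9% of its cells and 78.4% of the others, and its median depth was 14450 UMIs against 8306. The labels give no sex, and whether these cells came from another animal or culture was not tested. Values without cluster 7 are given below beside those that it moves across a threshold. Its pit list summed to 5213 CPM against 93.7 to 372 in the other clusters, its neck list to 77.7 against 9.0 to 26.1, and its chief list to 49.8 against 0.360 to 2.84, with Pga5 and Cblif at 0. Clusters 1 to 5 merged in part under another seed or a stricter cell filter, and clusters 6 and 7 kept apart there.

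Variation between clusters was described first. A ratio of at least 1.5, or its inverse, between a cluster and all other cells was reached in at least 1 cluster by 20 of 35 members, against 70.1% of all 8653 genes with at least 100 UMIs. No test compared these shares. By role they were 10 of 15 folding genes, 0 of 6 translocon genes, 5 of 7 degradation genes, 2 of 3 sensing genes and 3 of 4 ATF4-type genes. With cluster 7 left out, 14 of 35 members were called, against 59.5% of all genes, and these were 7 folding, 0 translocon, 4 degradation, 2 sensing and 1 ATF4-type gene. Of the 39 member and cluster pairs called in all cells, 39 had the same direction in the cells of each of the 2 multiplexing tags, and 22 passed the ratio in both. The pairs were called in the same cells that the 2 tags divide, so this is no independent check. The share over all genes is not given. Median ratios of highest to lowest cluster were 2.43 for folding genes, 1.66 for translocon genes and 3.97 for the 4 ATF4-type genes, against 2.19 for all genes. Without cluster 7 they were 1.96, 1.51 and 1.59, against 1.94, so the ATF4-type genes were above the folding genes with cluster 7 and below them without it.

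**Figure D2:**
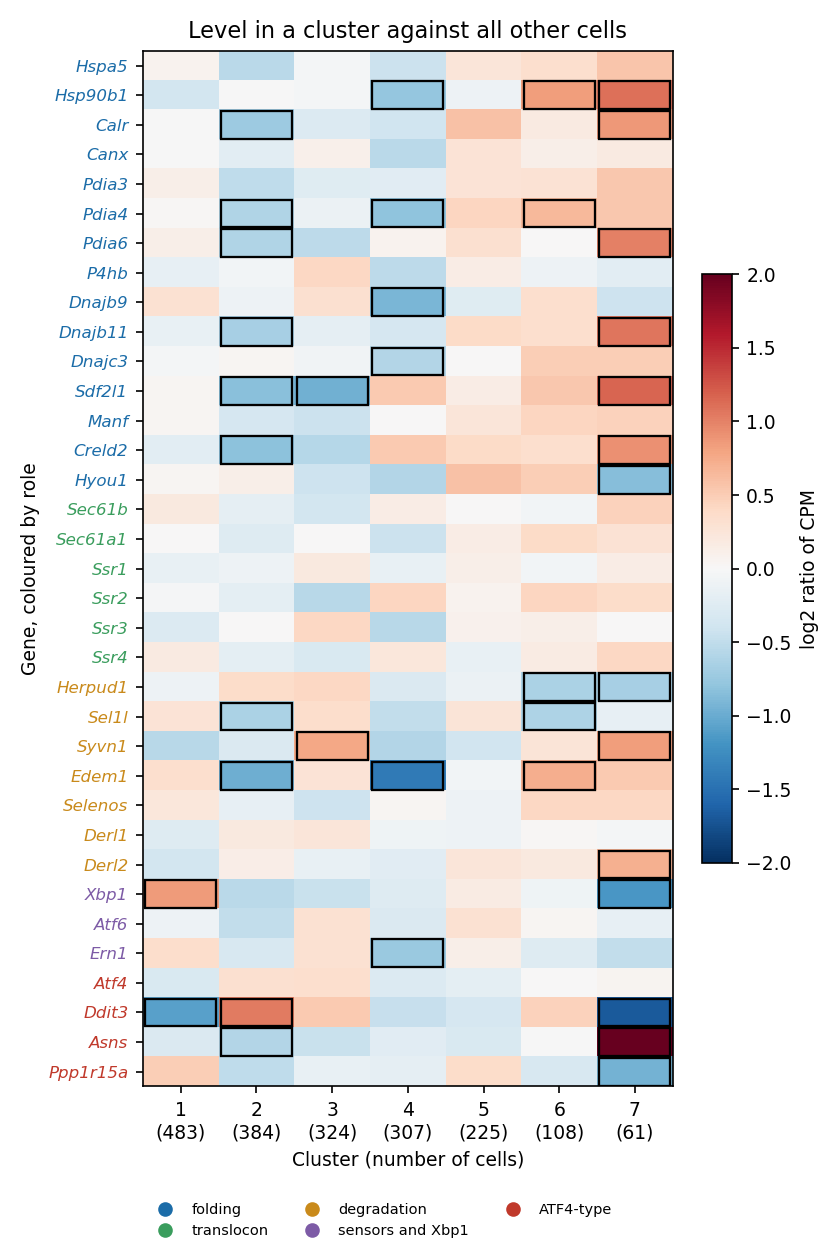
Log2 ratio of each member's CPM in a cluster to that in all other kept cells, for the 35 members with at least 100 UMIs. Boxes outline ratios past 1.5 in either direction, cell numbers stand under the clusters, and colours end at 2, which Asns in cluster 7 exceeds (a ratio of 5.25).

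The ATF4-type genes did not peak in the same cluster. Asns, which makes asparagine, was at 23.4, 19.1, 21.4, 23.9, 23.0 and 27.3 CPM in clusters 1 to 6 and at 119 CPM (98.2 to 142) in cluster 7. Cluster 7 thus stood 5.25 times above all other cells (4.25 to 6.44), while the other clusters lay close to each other. Asns UMIs were in 75.4% of cluster 7 cells, and the ratio was 5.55 in CMO301 cells and 4.89 in CMO302 cells. Ddit3 was at 16.5, 55.1, 40.1, 23.1, 25.1, 41.0 and 9.96 CPM in clusters 1 to 7. It was highest in cluster 2, at 2.05 times the other cells (1.70 to 2.47), and lowest in clusters 7 (0.313, 0.149 to 0.580) and 1 (0.471, 0.366 to 0.599). Without cluster 7, the Ddit3 ratios were 1.98 in cluster 2 and 0.449 in cluster 1.

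Ppp1r15a was at 218, 125, 157, 153, 209.8, 139 and 90.7 CPM in clusters 1 to 7. Its low in cluster 7 (0.519, 0.417 to 0.640) was the only ratio past 1.5. A list of 13 genes induced by cell handling, such as Fos and Egr1, was highest in cluster 5 (9618 CPM), where Ppp1r15a was at 209.8, and lowest in cluster 7 (4104 CPM). In clusters 1, 2 and 3 it was at 8871, 6605 and 9011 CPM. The part of handling in the Ppp1r15a levels was not tested. Atf4 mRNA itself was the flattest of the 4, from 79.9 CPM in cluster 4 to 115 in cluster 2, and no cluster passed 1.5.

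**Figure D3:**
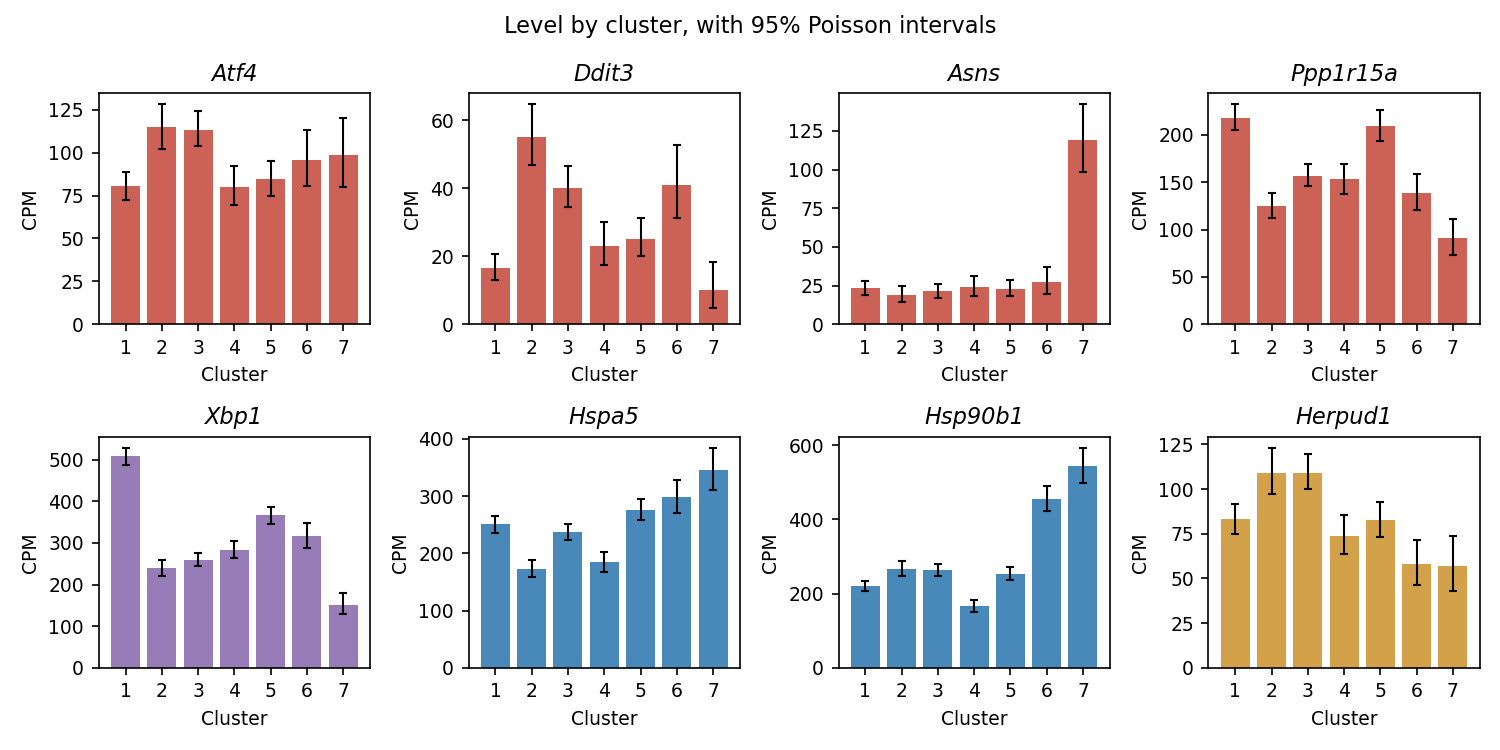
CPM of 8 members in each of 7 clusters, with 95% Poisson intervals, each panel from 0. Asns is high in cluster 7 alone, Ddit3 is highest in cluster 2, Xbp1 in cluster 1, and Hspa5 and Hsp90b1 in cluster 7, while Atf4 runs from 79.9 to 115 CPM.

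Xbp1 was at 508 CPM in cluster 1 (487 to 528), 1.81 times the other cells (1.72 to 1.90), and at 239, 260.0, 284, 366, 316 and 152 CPM in clusters 2 to 7. It was lowest in cluster 7, at 0.444 of the other cells (0.376 to 0.522). The folding list summed to 1664, 1408, 1671, 1334, 1959, 2105 and 2511 CPM in clusters 1 to 7. Cluster 7 thus had the lowest Xbp1 and the highest folding sum, while cluster 5 was above all cells in both and cluster 2 below in both. Xbp1 was highest in cluster 1. No folding gene passed 1.5 there, where 3.10% of all genes were higher and 7.25% lower.

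In cluster 7 the folding list summed to 2511 CPM (2414 to 2611) against 1671 in all other cells, a ratio of 1.5 (1.44 to 1.57). Of 15 folding genes, 6 were at least 1.5 times higher and 1 lower, where 21.0% of all genes were higher and 17.2% lower. The pit, neck and chief lists were also highest in this cluster, as given above, and their part in the folding values was not tested. The 6 were Sdf2l1 (2.25), Hsp90b1 (2.14, 544 against 254 CPM), Dnajb11 (2.11), Pdia6 (2.02), Creld2 (1.88) and Calr (1.82). Hspa5 was just under the ratio, at 346 CPM (1.47 times), and P4hb was at 281 CPM against 322 in all cells. Hyou1 was the lower gene (0.557), on 6 UMIs, and its interval of 0.202 to 1.23 held 1. Of the degradation genes, Derl2 was higher (1.63, 1.22 to 2.14) and Herpud1 lower (0.632, 0.477 to 0.823), and Syvn1 (1.78) rested on 11 UMIs.

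Cluster 6, led by mitotic genes, had Hsp90b1 at 454 CPM, 1.79 times the other cells (1.65 to 1.94), and Pdia4 at 64.2 CPM (1.56), where 10.9% of all genes were higher and 6.82% lower. Hspa5 was at 299 CPM there. Edem1 was higher (1.66, 1.02 to 2.57), and Herpud1 (0.642, 0.510 to 0.798) and Sel1l (0.649) were lower. Without cluster 7 these members passed too, and Sdf2l1 (1.55, 1.16 to 2.05) was higher as well. Of all 8653 genes, 1041 were then higher and 575 lower. Clusters 2 and 4 had the lowest folding sums, 1408 and 1334 CPM. In cluster 2, 6 folding genes were lower, from Sdf2l1 (0.560) to Pdia4 and Pdia6 (both 0.657), where 26.8% of all genes were lower and 2.38% higher. Without cluster 7, 3 of the 6 passed (Calr 0.631, Sdf2l1 0.596 and Creld2 0.591), where 25.5% of all genes were lower and 2.47% higher. Pdia4 (0.671), Pdia6 (0.693) and Dnajb11 then did not pass, and Xbp1 (0.663) did. Of the degradation genes, Edem1 (0.506, 0.278 to 0.857) and Sel1l (0.644) were lower in cluster 2, and Edem1 was lower in cluster 4 (0.377, 0.178 to 0.709). In cluster 4, 4 folding genes were lower (Dnajb9, Pdia4, Hsp90b1 and Dnajc3), where 25.0% of all genes were lower and 2.01% higher. Without cluster 7, Dnajb9 (0.520), Pdia4 (0.587), Hsp90b1 (0.621) and Hyou1 (0.650, 0.377 to 1.06) were lower, Dnajc3 (0.678) did not pass, and Sdf2l1 (1.54, 1.22 to 1.94) and Creld2 (1.51, 1.08 to 2.07) were higher. Of all genes 24.3% were then lower and 2.33% higher. Hsp90b1 was at 267 CPM in cluster 2 and 166 in cluster 4. In cluster 3 Sdf2l1 was lower (0.515, 0.395 to 0.661) and Syvn1 higher (1.71, 1.15 to 2.5), where 9.34% of all genes were lower and 7.87% higher. No member passed 1.5 in cluster 5, with 10.9% of all genes higher and 3.17% lower there. In that cluster Calr was at 342 CPM, a ratio just under 1.5, and 1.59 without cluster 7, where 1041 of 8653 genes were higher and 243 lower.

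Other genes of the ATF4 programme, 32 tested of 40 in the matrix, divided in cluster 7. There 15 were at least 1.5 times higher and 7 lower, with a median ratio of 1.37, against 21.0% and 17.2% of all genes and a median of 1.05. The higher genes included the cystine transporter Slc7a11 (5.24, 4.21 to 6.46), the folate enzyme Mthfd2 (3.69, 2.60 to 5.13), the serine synthesis genes Psph (2.51), Phgdh (2.23) and Psat1 (1.75), and tRNA synthetases such as Yars (2.46), Mars (2.30), Wars (2.25) and Aars (2.19). The lower genes included the stress regulators Nupr1 (0.272), Atf3 (0.401), Ddit4 (0.496) and Cebpb (0.570), and Pycr1 was at 0 UMIs in cluster 7. Gars, a tRNA synthetase, was also lower (0.597). Within the members the same cluster had Asns high and Ddit3 and Ppp1r15a low. Atf3 is on the handling list too, which was 4104 CPM in cluster 7 and 6605 to 9618 CPM in the others, and the part of handling was not tested.

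In cluster 2, where Ddit3 was highest, 1 of these 32 genes was higher (Nupr1, 1.54) and 13 were lower, among them Slc7a11 (0.475), Psat1 (0.543) and Phgdh (0.546), where 2.38% of all genes were higher and 26.8% lower. The median ratio of the list was 0.737 there, and that of all genes 0.821. Without cluster 7, 13 of the 32 were lower and 0 higher, against 25.5% and 2.47% of all genes, with a median of 0.763 against 0.829. Nupr1 was then at 1.48, Slc7a11 at 0.582, Psat1 at 0.563 and Phgdh at 0.580. Asns was 0.665 of the other cells in cluster 2 (0.491 to 0.883), and 0.823 (0.605 to 1.1), which did not pass, without cluster 7. Ero1l, which re-oxidises protein disulfide isomerases, was higher in clusters 2 (1.95) and 3 (2.10) and lower in cluster 1 (0.385). Of 20 other folding genes tested of 24, 3 were higher and 1 lower in cluster 7, where 21.0% of all genes were higher and 17.2% lower. The 2 most abundant genes of the further lists were Ppib and Ero1l (folding, 331 and 214 CPM), Sec61g and Dad1 (translocon, 658 and 539), Selenok and Vcp (degradation, 238 and 107), Eif2s1 and Mbtps1 (sensing, 67.6 and 21.5) and Nupr1 and Atf3 (ATF4-type, 1292 and 1085).

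Covariation from cell to cell was then described in 1835 cells, each thinned to 3000 UMIs so that depth was equal. All cells share 1 library, its handling and its free RNA, and r is given with no p. Of the members, 17 had a mean of at least 0.2 thinned UMIs. In such sparse counts all r between members were weak, at most 0.15. Among 8 folding genes (28 pairs), the median r was 0.04 (-0.02 to 0.15), with 26 pairs above 0 and 32.1% over 0.05, against a median of 0.003 and 8.62% over 0.05 for all pairs of 1619 genes. Hspa5 and Hsp90b1 had the highest r, 0.15 (0.14 and 0.16 in the 2 tags, 0.15 within clusters), followed by Hspa5 and Pdia3 (0.12). Between folding genes and Atf4 or Ppp1r15a, the 2 ATF4-type genes with enough UMIs (16 pairs), the median was 0.01 and 0 pairs were over 0.05. Pairs of folding genes with translocon genes (32 pairs) and with degradation genes (16 pairs) had the same median, with 3 and 0 pairs over 0.05, and those with Xbp1 (8 pairs) had a median of 0.03 with 0 over 0.05.

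**Figure D4:**
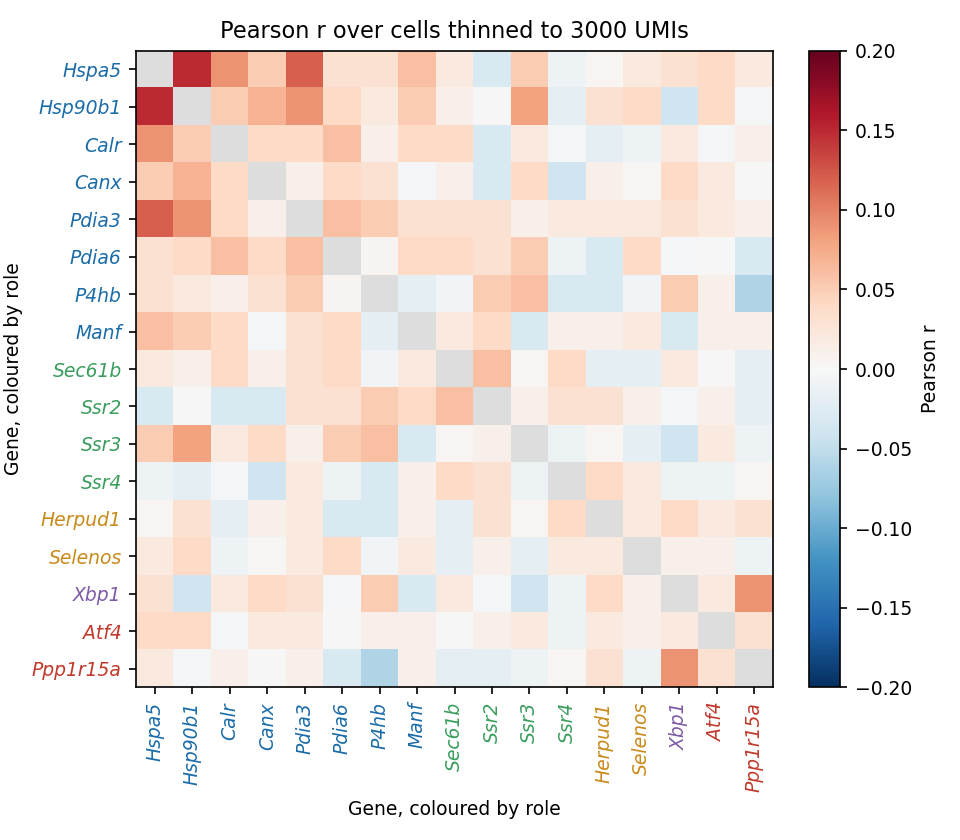
Pearson r between the 17 members with a mean of at least 0.2 UMIs, over 1835 cells thinned to 3000 UMIs, ordered and coloured by role, with the diagonal in grey. The warmest block is among Hspa5, Hsp90b1, Calr and Pdia3, and the highest r is 0.15.

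Against the summed folding list without the gene itself, r was 0.20 for Hspa5, 0.17 for Hsp90b1, 0.15 for Pdia3 and 0.11 for Calr, where the 5th and 95th percentiles of all 1619 genes were -0.09 and 0.09. It was 0.06 for P4hb, the most abundant folding gene. Outside the list, Ssr3 reached 0.10, Atf4 0.05, Xbp1 0.04, Herpud1 0.001 and Ppp1r15a -0.01. The sums of the folding and ATF4-type lists had r 0.03, and 0.03 within clusters. Ppp1r15a had r 0.20 with the handling list, Xbp1 and Herpud1 0.11 each, and Ddit3 -0.10. With the ATF4-type sum, r was 0.02 for Herpud1, and for its own members, each left out of the sum, 0.04 for Atf4 and Ddit3, 0.02 for Ppp1r15a and -0.02 for Asns. The 5th and 95th percentiles of the 1619 genes were -0.05 and 0.05 for this sum. Of the other members, Hyou1 (0.08) and Xbp1 (0.06) had the highest r with it.

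The 10 other genes with the highest r to the folding sum were Hmgb2 (0.19), Ptma, Hspd1, Set, the ER ribosome-binding protein Rrbp1 (0.15), Hnrnpa2b1, Hnrnpa3, Rpl23a, Dek and the cytosolic chaperone Hsp90aa1 (0.14). Those with the highest r to the ATF4-type sum were Rhob (0.13), Fosb, Klf4, Klf2, Fos, Atf3, Egr1, Klf6, Eif3a and Ddx5 (0.09). Of these, Fosb, Fos, Atf3 and Egr1 are on the handling list. The ATF4-type sum averaged 1.03 thinned UMIs per cell, and Ppp1r15a made up 51.9% of the list. The folding sum averaged 4.88. Sparser counts lower r, so r with the ATF4-type sum cannot be set directly against r with the folding sum.

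Cells were also ranked by the thinned sum of the other folding genes with ties ordered by the list's share of all UMIs of the cell, and divided into 5 equal groups (quintiles), and each gene's CPM was compared between the top and bottom group. Hspa5 was at 159.8, 214, 228, 241 and 338 CPM from the lowest to the highest quintile, a ratio of 2.11 (1.91 to 2.34). Its level was thus higher at each step. All 15 folding genes were at least 25% higher in the top quintile, with a median ratio of 1.70, against 41.0% of all genes higher by that much, 5.28% lower by at least 20% and a median of 1.19 (a shift of the whole scale, so ratios are to be read against it). Ratios ran from 1.32 for P4hb through 1.93 for Hsp90b1 to the 2.11 of Hspa5. Of 20 other folding genes tested, which did not enter the ranking, 8 were at least 25% higher and 0 at least 20% lower. Their median ratio was 1.23, near the 1.19 of all genes. Without cluster 7 all 15 genes of the list were higher, against 38.9% of all genes, with a median of 1.5 against 1.17. With ribosomal and mitochondrial UMIs removed and cells thinned to 2000 UMIs, 2 choices changed together, 12 were higher, against 31.4% of all genes, with a median of 1.58 against 1.11.

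**Figure D5:**
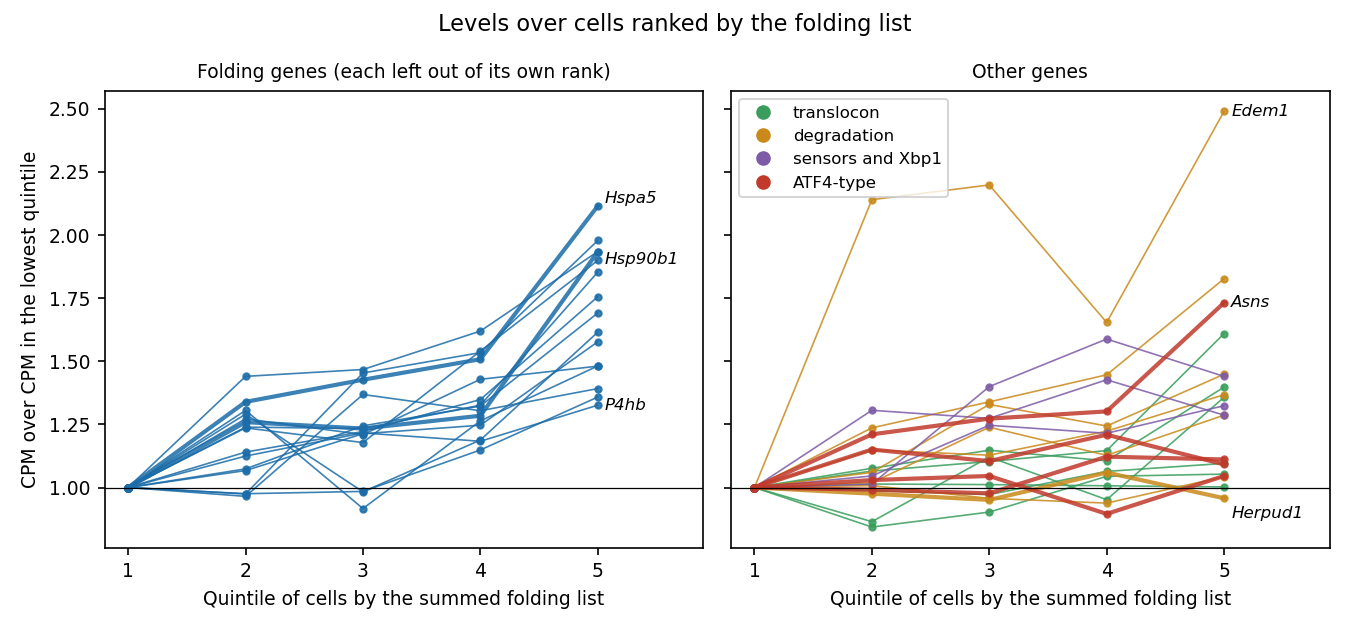
CPM of each member over its CPM in the lowest quintile, for cells ranked by the summed folding list (5 groups of 367 cells, on the x axis from lowest to highest), with folding genes on the left, each left out of its own ranking, and other members on the right. Hspa5 and Hsp90b1 climb to 2.11 and 1.93, Asns to 1.74, and Herpud1 ends at 0.957.

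Of the 4 ATF4-type members tested, Asns alone passed 25% in that ranking, at 1.74 (1.31 to 2.32), and it was 1.35 without cluster 7 (0.962 to 1.91). Atf4 was at 1.11, Ppp1r15a at 1.09 and Ddit3 at 1.05, in this setting below the median of 1.19 of all genes. With cells thinned to 5000 UMIs, Atf4 was at 1.30, past 25%, against a median of 1.22. With ribosomal and mitochondrial UMIs removed and cells thinned to 2000, Atf4 was at 1.19 against a median of 1.11. Without cluster 7 the median of the 4 ATF4-type members was 1.17, and that of all genes was 1.17. In all cells, of the 32 other genes of the ATF4 programme tested, 20 were at least 25% higher and 1 at least 20% lower, with a median of 1.35. Of all genes 41.0% were higher and 5.28% lower, with a median of 1.19. As a sum that further ATF4 list was at 0.952 (0.931 to 0.974). No value without cluster 7 was computed for it in this ranking. In all cells Xbp1 was at 1.32, Atf6 at 1.28 and Ern1 at 1.44. Edem1 reached 2.48 (1.43 to 4.49) on 18 and 55 UMIs, and 1.36 (0.841 to 2.24) with ribosomal and mitochondrial UMIs removed and cells thinned to 2000, and 1.90 (1.06 to 3.55) when thinned to 5000 with those UMIs kept. Of 7 degradation genes 5 passed 25% (4 without cluster 7, where Derl2 was at 1.23 in place of 1.28), and Derl1 (1.04) and Herpud1 (0.957, 0.821 to 1.12) did not. Of 6 translocon genes 3 passed (Ssr1, Ssr3 and Sec61a1), and Ssr4 was at 1.0. From the lowest to the highest quintile, the ribosomal share went from 36.8% to 33.0% of UMIs and the median depth from 7705 to 9214. Cells with a UMI of the proliferation genes Mki67 or Top2a went from 8.17% to 23.2%, cluster 7 cells from 1.63% to 8.45%, and the handling list from 8182 to 8032 CPM. The part of these in the ratios was not tested beyond the values without cluster 7 and those without ribosomal and mitochondrial UMIs at 2000 UMIs per cell.

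In the converse ranking, by the ATF4-type list, the lower 2 quintiles both had 0 thinned UMIs of the list and were parted only by its share of all UMIs (69.7 and 311 CPM), with median depths of 7615 and 10339. Folding genes differed little: 2 were at least 25% higher in the top quintile (Dnajb9, 1.72, 1.24 to 2.41, and Hspa5, 1.34, 1.22 to 1.48) and 1 lower (Creld2, 0.787), with a median of 1.07, against 17.2% of all genes higher, 10.6% lower and a median of 1.03. Among the 4 ATF4-type genes, each left out of its own ranking, Atf4 passed 25% at 1.28, and Asns was at 0.863, Ddit3 at 0.954 and Ppp1r15a at 1.09. Without cluster 7 Atf4 was at 1.24 and did not pass. The handling list was 1.33 times higher in the top quintile (1.31 to 1.35), with 8 of 13 genes past 25%. From the lowest to the highest quintile it was at 7009, 8401, 7898, 8649 and 9309 CPM, so the lowest quintile stood apart from the next. Hspa5 was likewise at 206, 239, 235, 247 and 276 CPM. Its part in the Hspa5 value was not tested.

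Rare ATF4-type genes were also compared by detection. Cells with a Ddit3 UMI (433 cells, median depth 11524 against 7957) had Chac1 at 2.06 CPM against 0.700 in cells without, a ratio of 2.94 (1.16 to 7.59), and Atf4 at 104 against 91.3 CPM (1.14, 1.03 to 1.26). Trib3 was at 4.97 against 3.36 CPM (1.48, 0.899 to 2.39) and Asns at 24.5 against 28.6 (0.858, 0.704 to 1.04). Ppp1r15a was at 161 against 174 CPM (0.923, 0.856 to 0.996). The intervals of Trib3 and Asns held 1, the Chac1 value rests on 22 UMIs in all, and the ratios were not compared by a test. No ratio over all genes is given for these splits, and the part of depth and of cluster make-up was not tested. Cells with an Asns UMI had Herpud1 at 76.8 CPM against 93.2 (0.824, 0.740 to 0.917), at a median depth of 13440 against 7766.

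Cells with a thinned Mki67 or Top2a UMI numbered 251, against 1584 without. The folding list was at 2108 against 1636 CPM, 28.9% higher (25.5% to 32.4%), and 8 of 15 folding genes were at least 25% higher and 0 lower, against 24.8% and 6.80% of all genes. Hsp90b1 had the highest ratio, 1.76 (1.65 to 1.87), and P4hb the lowest, 1.0. Without cluster 7 the list was 21.1% higher (17.5% to 24.8%), 4 of 15 genes passed and 0 were lower, against 21.4% and 6.92% of all genes, and Hsp90b1 was at 1.63. The ATF4-type list was at 0.936 (0.874 to 1.0). Asns was at 1.72 (1.41 to 2.09) with cluster 7 and 0.907 (0.669 to 1.21) without it, and so passed 25% only with it. Ppp1r15a was at 0.780 with cluster 7 and 0.869 (0.781 to 0.965) without it, no longer 20% lower, and Xbp1 at 0.857 and 0.937 (0.870 to 1.01).

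The library carried 2 multiplexing tags, CMO301 (1062 cells) and CMO302 (830 cells), which the labels do not tie to any group. Member ratios between them ran from 0.834 to 1.18, and none passed 25%, against 3.87% of all genes higher and 3.50% lower. The interval of 1 of 35 members, Hsp90b1 at 1.07 (1.01 to 1.13), excluded 1.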

How the data were processed

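The deposited matrix holds raw UMI counts per gene and barcode, whole numbers with no normalization by the authors to be seen in the values. Cell Ranger 6.1.2 and GRCm38/mm10 are named in the submitters' processing notes, and the gene annotation is not given in the sources used here. Counts of the 12 multiplexing tags were kept apart, and coordinates come from GENCODE M21 (GRCm38). Kept cells had at least 500 genes and at most 20% mitochondrial UMIs. Scrublet in scanpy 1.11.5 called 12 doublets (0.634%, with 1.51% expected), which were kept, and their removal was an alternative. Kept cells held 20118334 gene UMIs, from 890 to 47183 per cell. Clustering used 10000 UMIs per cell, 2000 variable genes, 30 components, 15 neighbours and Leiden (leidenalg 0.10.2) at resolution 0.6. Intervals are at 95%, exact Poisson for CPM, exact Clopper-Pearson for shares and conditional binomial for ratios, computed with scipy 1.17.1, and cover counting error only. Thinning drew 3000 UMIs per cell without replacement and left out 57 shallower cells. The steps were tested on simulated data.

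Named genes were all members, the 2 most abundant genes of each further list and those past a ratio named in the text, the leading genes of a cluster, and the 10 genes of highest r. Trpm5, Chga and other markers come from fixed marker lists. Y-linked genes, Xist, correlations within clusters, the ranking without ribosomal and mitochondrial UMIs, and the omission of cluster 7 from levels, clusters, correlations and the proliferation comparison were chosen after seeing the data. The members and lists were chosen with earlier results of these data known.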

Additional observations from a re-analysis of the deposited data

Results flagged for a closer look

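The 99 barcodes that the cell filter removed, with a median of 901 UMIs, held UMIs of the folding list at 1687 CPM (1461 to 1937), far over the 25.3 CPM that a count of 3 would give, although no comparison of the report used them (they enter the alternative over all deposited barcodes). In the same barcodes the ATF4-type list was at 320.5 CPM (227 to 439.8), the translocon list at 675 (535 to 839.6), the degradation list at 211 (136 to 311) and the sensing list at 177 (109.6 to 271). The intervals of the folding and ATF4-type lists held the levels of the kept cells (1713 and 328 CPM), as did that of the degradation list (302 CPM), while those of the translocon and sensing lists lay below the kept cells' 995 and 363 CPM.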

How the results depend on the processing

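No paired analysis was possible because 1 library was all the data. Of 88 values of the main summaries under alternatives, 77 stayed within the interval of the value reported (counts of genes within 1.5 times), and of 955 values of single genes 897 did, 54 moved and 4 reversed. The folding list, 1713 CPM, was at 1657 as a mean over cells, 1731 in CMO301 cells, 1689 in CMO302 cells and 1671 without cluster 7. Without cluster 7, an omission chosen after seeing the data, the translocon list was at 981 CPM, the sensing list at 373 and the folding ratio by proliferation UMI at 1.21. At resolution 0.3, which gave 3 clusters and merged clusters 6 and 7, 12 members passed 1.5 in place of 20, and Asns in the merged cluster was at 2.97. The r of Hspa5 and Hsp90b1 was 0.10 as a rank correlation and 0.20 on the logarithm of depth-scaled unthinned counts, where the folding and ATF4-type sums had r 0.12. The low of Sel1l in cluster 2 (0.644) was at 1.0 under the filter of 1000 genes and 10% mitochondrial UMIs and at 1.01 under another seed. The low of Pdia4 in cluster 4 (0.574) was at 1.13 under that filter and 1.05 at resolution 0.3. In each of these 4 cases the cluster had merged with another. Depth limits Trib3, Chac1, Derl3, Ern1 in cluster 4, and Hyou1 and Syvn1 in cluster 7.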
